A study of Rattus norvegicus with 63 samples.

Results

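The miR-29 family consists of rno-miR-29a, rno-miR-29b and rno-miR-29c. These 3 microRNAs (miRNAs) were taken by name from the 350 rat miRNAs on an Agilent array, and all 3 were among the 162 miRNAs that were detected on at least 1 of 63 arrays and tested. Each array held RNA from the liver of a male Wistar Hanover rat, 8 to 10 weeks old, dosed by gavage. The study compared liver carcinogens with non-carcinogens, with 3 rats in each of 21 groups, that is 15 compounds and 6 vehicle control sets. The labels number the 3 samples of a group as replicates, and p-values measure the spread between these samples. By the study's methods, the 3 treated rats were picked from a larger dose group because histopathology found at least some liver changes. The dosing time of each compound was the one with the strongest mRNA deregulation in an earlier study. The p-values do not account for this selection.

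The non-genotoxic carcinogens (NGC) were acetamide (AA, 3000 mg/kg/day for 14 days), diethylstilbestrol (DES, 10 mg/kg/day, 3 days), dehydroepiandrosterone (DHEA, 600 mg/kg/day, 14 days), ethionine (ETH, 200 mg/kg/day, 14 days), methylcarbamate (Mcarb, 400 mg/kg/day, 14 days), methapyrilene HCl (MPy, 60 mg/kg/day, 7 days), phenobarbital sodium (PB, 14 days, no dose in the labels) and piperonylbutoxide (PBO, 1200 mg/kg/day, 3 days). The genotoxic carcinogens (GC) were C.I Direct Black (CIDB, 146 mg/kg/day) and dimethylnitrosamine (DMN, 4 mg/kg/day), both for 7 days. The non-carcinogens (NC) were cefuroxime (CFX, 250 mg/kg/day) and nifedipine (Nif, 3 mg/kg/day), both for 14 days. Cyproterone acetate (CPA, 100 mg/kg/day, 14 days), thioacetamide (TAA, 19.2 mg/kg/day, 7 days) and Wy-14643 (Wy, 60 mg/kg/day, 3 days) had no class. Each compound was set against the control set its label names. Sets MC1 (for AA, DHEA, Mcarb, MPy, TAA and Wy), MC2 (CFX and Nif), MC5 (DES, ETH and PBO) and MC6 (PB) received methylcellulose for 14 days. Sets CO3 (CIDB and DMN, 7 days) and CO4 (CPA, 14 days) received corn oil. For 5 compounds (DES, PBO, Wy, MPy and TAA) the control rats were dosed for more days than the treated rats, so compound and length of dosing cannot be told apart there by the labels. The study's methods describe the controls as matched in time, which these labels do not show.

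A miRNA guides a silencing complex to mRNAs that pair with its seed, the bases near its 5′ end, and lowers the output of those mRNAs. The miR-29 family is known for pairing with the mRNAs of fibrillar collagens and other matrix proteins, and in liver it is held down by TGF-β signalling when stellate cells turn into matrix-producing myofibroblasts. Its members share their targets through a common seed and differ mainly in the bases behind it.

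The mature sequences are shown because the members differ by so few bases that a reader can judge what the array had to tell apart. They are the RefSeq entries on GRCr8, written 5′ to 3′ with the seed (bases 2 to 8) in capitals, and all 3 members matched an entry.
rno-miR-29a-3p: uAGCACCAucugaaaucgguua
rno-miR-29b-3p: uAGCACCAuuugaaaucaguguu
rno-miR-29c-3p: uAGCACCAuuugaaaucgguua
Counted from the 5′ end, rno-miR-29a and rno-miR-29c differ by the single substitution C10U over 22 bases. From rno-miR-29a to rno-miR-29b the substitutions are C10U, G18A, U21G and A22U, and rno-miR-29b has 1 base more. Of 693 mature rat names in the table, these 3 alone held the seed AGCACCA. Rno-miR-29a comes from chr4:60617968-60617989 on the minus strand. Rno-miR-29b has a copy beside it at chr4:60618342-60618364 on the minus strand and another at chr13:109098882-109098904 on the plus strand, next to rno-miR-29c at chr13:109099412-109099433 on the plus strand. The hairpins Mir29a and Mir29b1 lie 291 bases apart and Mir29b2 and Mir29c 447 bases apart, with the pair on chromosome 13 inside the long non-coding gene LOC102550527 and no annotated gene over the pair on chromosome 4. Since both copies give the same mature rno-miR-29b, the array could not assign its signal to a cluster.

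Before the results, 1 feature of the labels has to be stated. For 15 of the 63 columns of the deposited table of normalised values, the values followed the scanner reading of another sample rather than the sample's own. The columns for DES and DHEA were exchanged, the MC1 columns followed the arrays filed as MC5, the MC5 columns those filed as MC2, and the MC2 columns those filed as MC1. Which record is right was not tested, so arrays are named here by the sample they are filed under, and values under the assignment of the deposited table follow beside the main results they touch. PB, CIDB, DMN, CPA and their control sets were the same under both.

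All 3 members were detected, and well above background, on 63 of 63 arrays, each by 2 probes and 20 spots. Liver identity was plain from miR-122, the dominant hepatocyte miRNA, which was detected on 63 arrays. The opposite strands of the same hairpins were near the limit: rno-miR-29a* was detected on 1 array, rno-miR-29c* on 3 arrays, and rno-miR-29b-1* and rno-miR-29b-2* on 0 arrays. The rno-miR-29c* arrays were the second rats of CIDB and MPy and replicate 4 of MC1, whose array also gave the rno-miR-29a* signal. The CIDB and MC1 arrays among these were scanned on the last of 3 scan days, which held 5 arrays with the lowest median spot brightness. The number of arrays limits the precision of all values below, and in bulk liver fewer cells of a type and less RNA per cell cannot be told apart.

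Levels are normalised log2 intensities, comparable between groups for 1 miRNA and not between miRNAs. Over the 21 group means, miR-29b covered a range of 1.04, miR-29c of 0.69 and miR-29a of 0.63 on this log2 scale. CPA had the highest mean of all 3 members. The lowest means were those of TAA for miR-29a (10.02 ± 0.11, SD, n = 3), MC6 for miR-29b (9.41 ± 0.09) and ETH for miR-29c (9.17 ± 0.06).

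**Figure D1:**
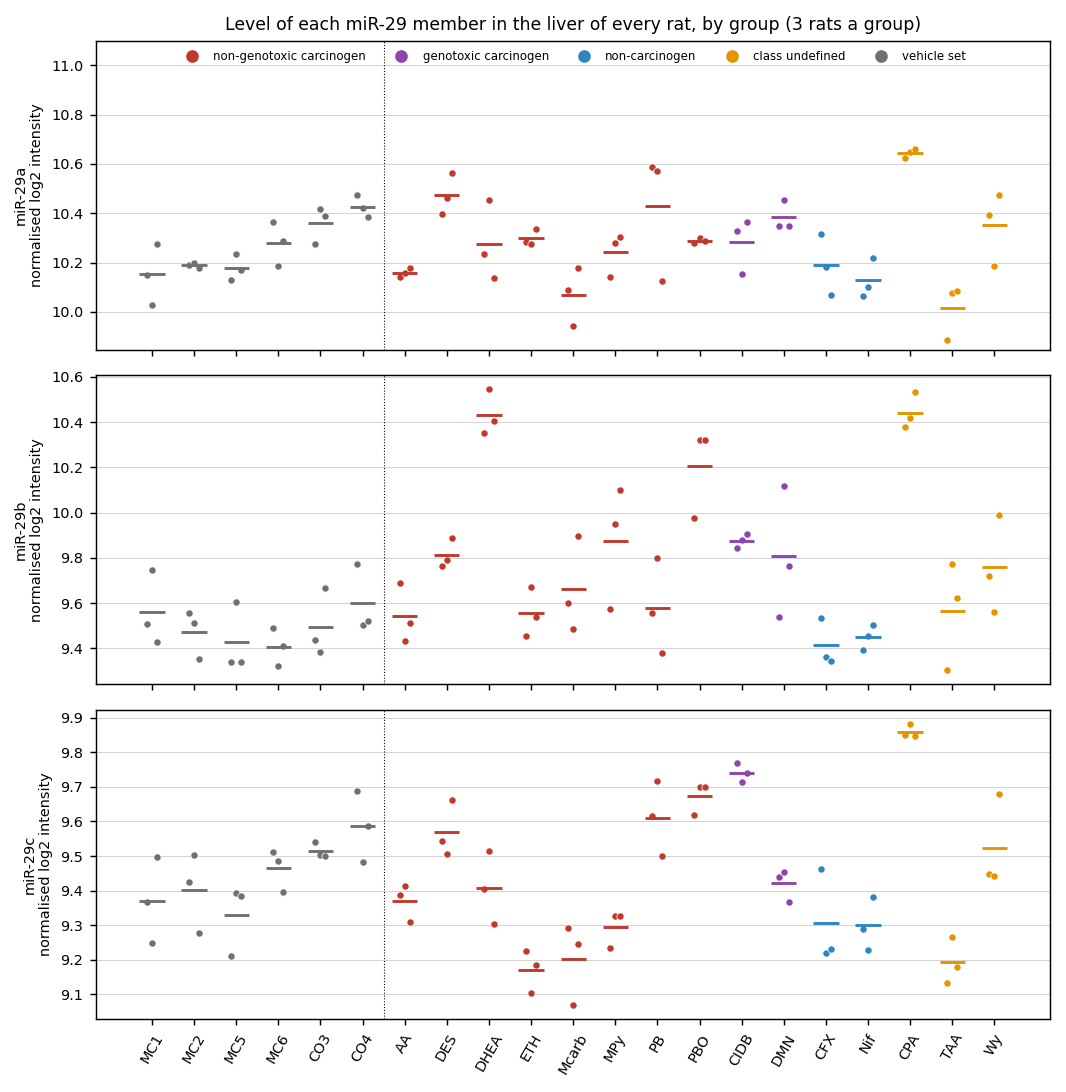
Normalised log2 intensity (y axis) of miR-29a, miR-29b and miR-29c in each of 63 rats (points) with the group mean (bar), for 6 vehicle sets left of the dotted line and 15 compounds right of it, under the labels of the scanner files. For miR-29b the 9 rats of DHEA, PBO and CPA lie between 9.98 and 10.55, above every vehicle rat, the highest of which is at 9.77.

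In the order of group means most neighbours were not separable. For miR-29b, 1 of 20 steps exceeded 2 standard errors of a difference, namely the gap of 0.33 between PBO and CIDB that set CPA, DHEA and PBO apart from the other 18 groups. For miR-29a the 1 such step was that of 0.17 between CPA and DES, and for miR-29c there were 0.

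The vehicle sets show how far the members varied without a compound. Over 18 vehicle rats miR-29a had a lowest level of 10.03, a median of 10.25 and a highest of 10.47. For miR-29b these were 9.32, 9.50 and 9.77, and for miR-29c 9.21, 9.48 and 9.69. In 7 comparisons between sets of the same vehicle, limma called none of the members (smallest adjusted p 0.318 for miR-29a, 0.484 for miR-29b and 0.207 for miR-29c), and none had an unadjusted p under 0.05 (smallest 0.136, 0.251 and 0.0601). Over all 162 miRNAs the share called was 20.4% between MC1 and MC6, 9.26% between MC5 and MC6 and 6.79% between MC2 and MC6. In the other pairs it was 0%, so there the absence of a call says little about the members. Vehicle rats read on scan day 1 lay higher for miR-29a (median 10.39, n = 9) than those read on scan day 2 (median 10.18, n = 8), with 10.19 to 10.47 against 10.03 to 10.28. For miR-29b the medians of these days were 9.49 and 9.47, and for miR-29c 9.50 and 9.39. Of the 9 vehicle rats of day 1, 6 had received corn oil, and the 3 methylcellulose rats among them (set MC6) had miR-29a at 10.36, 10.19 and 10.29, overlapping with day 2.

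The question for each compound was whether it moved the family away from its control set. A member is said to have risen where the adjusted p of limma, corrected over all 162 miRNAs of that compound, was under 0.05. MiR-29b rose in 5 of 15 compounds, miR-29c in 4 and miR-29a in 1, and none fell in this fit. In the alternative settings run no fall of miR-29b was called, but falls were called of miR-29c in ETH, Mcarb, MPy or TAA and of miR-29a in TAA, among them with arrays scaled on the 75th percentile over all probes (miR-29c −0.57 in MPy and −0.67 in TAA, limma adjusted p 0.0206 and 0.00687), under which none of the 4 rises of miR-29c was called (limma adjusted p 0.0638 to 0.405). All 10 calls came from 5 compounds, CPA, DHEA, PBO, DES and CIDB. Over all miRNAs and compounds, 14.3% of values were called, and of the 45 member values 22.2%.

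**Figure D2:**
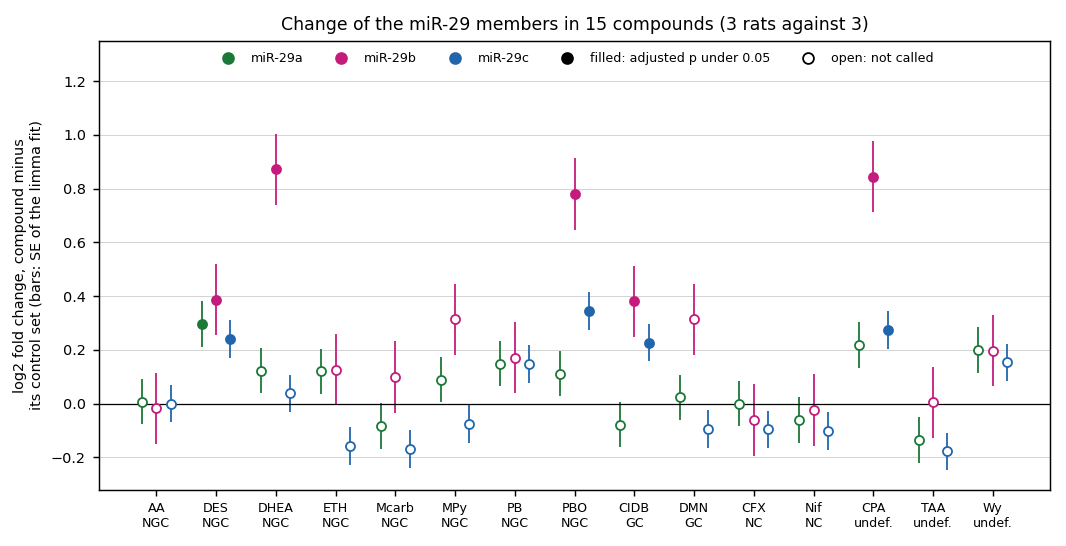
Log2 fold change of miR-29a (green), miR-29b (magenta) and miR-29c (blue) in 15 compounds against their control sets, 3 rats against 3, with the standard error of the limma fit as bars and filled points for an adjusted p under 0.05. MiR-29b stands at 0.78 to 0.87 in DHEA, PBO and CPA and within 0.39 of 0 in the other compounds.

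In CPA, a synthetic progestin and antiandrogen, miR-29b and miR-29c rose. The CPA rats had miR-29b levels of 10.38, 10.42 and 10.53, and the CO4 rats 9.77, 9.50 and 9.52. Every CPA rat lay above every control rat. The log2 fold change was 0.84 with a standard error of 0.13, a 1.80-fold rise (95% interval 0.58 to 1.11 on the log2 scale, limma adjusted p = 8.35e-06), and it was the highest of the 162 log2 fold changes in this compound. In CPA 5.56% of all miRNAs were called.

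MiR-29c also rose in CPA. Its levels were 9.85, 9.88 and 9.85 against 9.69, 9.48 and 9.59 in CO4, again without overlap, and the log2 fold change was 0.27 with a standard error of 0.07 (limma adjusted p = 0.0108). Without CO4 replicate 2 the value was no longer called (adjusted p = 0.0949). MiR-29a stood at 10.63, 10.65 and 10.66 against 10.47, 10.42 and 10.39, a difference of 0.22 that limma did not call (adjusted p = 0.113) although the groups did not overlap. All 6 arrays of CPA and CO4 were on 1 slide and read on 1 scan day, so these differences stand within a batch.

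PBO, a pesticide synergist that induces drug-metabolising enzymes, gave a similar picture. MiR-29b was at 9.98, 10.32 and 10.32 in the PBO rats and at 9.34, 9.60 and 9.34 in the MC5 rats. The first PBO rat was the lowest of its group and still above every control rat. The log2 fold change was 0.78 with a standard error of 0.13, a 1.72-fold rise (limma adjusted p = 2.12e-05), and again the highest of 162. MiR-29c was at 9.62, 9.70 and 9.70 against 9.21, 9.39 and 9.38, also without overlap, with a log2 fold change of 0.34 (SE 0.07, limma adjusted p = 0.000445). MiR-29a was at 10.28, 10.30 and 10.29 against 10.13, 10.23 and 10.17, with a difference of 0.11 that limma did not call (adjusted p = 0.444). In PBO 8.64% of miRNAs were called. On the slide that held all PBO rats and 2 of the MC5 rats, the differences were 0.74 for miR-29b, 0.28 for miR-29c and 0.09 for miR-29a. Under the assignment of the deposited table, with the arrays filed as MC2 as controls and 15.4% of miRNAs called, miR-29b rose by 0.73 (limma adjusted p = 7.91e-05) and miR-29c by 0.27 (adjusted p = 0.0066).

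The arrays filed as DHEA, an adrenal steroid that proliferates peroxisomes in rat liver, had miR-29b at 10.35, 10.55 and 10.40, and the arrays filed as MC1 at 9.51, 9.75 and 9.43. The groups were separated by a wide gap. The log2 fold change was 0.87 with a standard error of 0.13, a 1.83-fold rise (limma adjusted p = 1.63e-06), where 18.5% of miRNAs were called. The DHEA and MC1 arrays shared no slide, and with slide as a fixed block the rise was 0.53 and not called (adjusted p = 0.47), while among the arrays of scan day 2 alone (3 against 2) it was 0.85. MiR-29a overlapped with its controls (10.24, 10.45 and 10.14 against 10.15, 10.03 and 10.28), with a log2 fold change of 0.12 (limma adjusted p = 0.325). MiR-29c overlapped as well (9.41, 9.52 and 9.30 against 9.37, 9.25 and 9.50), with a log2 fold change of 0.04 (limma adjusted p = 0.754).

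The deposited table gives these same 3 arrays to DES, the synthetic estrogen, and compares them with the arrays filed as MC2. On that reading the rise of miR-29b belonged to DES, with a log2 fold change of 0.96 and a standard error of 0.13 (limma adjusted p = 2.98e-07, 17.9% of miRNAs called), and miR-29a and miR-29c stood at 0.09 and 0.0074. The 3 arrays with high miR-29b thus exist under both records, and the compound they belong to is what differs.

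The arrays filed as DES had all 3 members higher than those filed as MC5. MiR-29a was at 10.40, 10.46 and 10.56 against 10.13, 10.23 and 10.17, miR-29b at 9.76, 9.79 and 9.89 against 9.34, 9.60 and 9.34, and miR-29c at 9.54, 9.50 and 9.66 against 9.21, 9.39 and 9.38. None of these groups overlapped. The log2 fold changes were 0.30 (SE 0.08), 0.39 (SE 0.13) and 0.24 (SE 0.07), with limma adjusted p of 0.00603, 0.0199 and 0.00689. Without DES replicate 3 or MC5 replicate 7 neither miR-29b nor miR-29c was called, nor was miR-29b without MC5 replicate 9 (adjusted p up to 0.0813 and 0.0623), while miR-29a was called in all 6 such cases. In this comparison 37% of miRNAs were called, the highest share of the 15 compounds, so 3 calls weigh less here than elsewhere. All arrays filed as DES were read on scan day 1 and all filed as MC5 on scan day 2. With scan day as a block the log2 fold changes were 0.20, 0.37 and 0.20 and limma called none of the 3 (adjusted p 0.285, 0.285 and 0.271). These 2 groups shared no scan day, so the block estimates were indirect, and the part of scan day was not tested. The deposited table gives these arrays to DHEA and the controls to MC1, with the same values and the same 37% called.

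CIDB, a benzidine-based azo dye and genotoxic carcinogen, had higher miR-29b and miR-29c than its controls, and a miR-29a whose direction turned with the scaling. MiR-29b was at 9.84, 9.88 and 9.90 in the CIDB rats and at 9.43, 9.38 and 9.67 in the CO3 rats. The third control rat came nearest, but the groups did not overlap. The log2 fold change was 0.38 with a standard error of 0.13 (limma adjusted p = 0.0341), where 20.4% of miRNAs were called, and it was the third highest of 162. Leaving out any 1 of 5 of the 6 rats ended this call (adjusted p up to 0.133), the exception being CO3 replicate 6. MiR-29c was at 9.77, 9.71 and 9.74 against 9.54, 9.50 and 9.50, with a log2 fold change of 0.23 (SE 0.07, limma adjusted p = 0.0171). Without CO3 replicate 5 it had an adjusted p of 0.0501. The CIDB arrays lay on 3 slides, and with slide as a fixed block neither was called, at log2 fold changes of 0.41 for miR-29b and 0.23 for miR-29c (limma adjusted p 0.185 and 0.115). MiR-29a was at 10.33, 10.15 and 10.36 against 10.28, 10.42 and 10.39, with a log2 fold change of −0.08 (limma adjusted p = 0.524) and the second CIDB rat below every control rat. With the 75th percentile over detected probes it was 0.43 (limma adjusted p = 0.00441), where the median of all miRNAs stood at 0.31, and with median centring 0.61 (limma adjusted p = 0.000595), where that median stood at −0.42.

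In the other 10 compounds limma called 0 members, although miR-29c had an unadjusted p under 0.05 in 5 of the 10, miR-29b in 2 and miR-29a in 1. DMN, the classic nitrosamine used to induce liver fibrosis, had miR-29b at 9.54, 10.12 and 9.77 against 9.43, 9.38 and 9.67 in CO3. Its second rat stood far above the others, and without it the log2 fold change of 0.31 (SE 0.13, limma adjusted p = 0.0828, 23.5% of miRNAs called) was 0.16. MiR-29c went the other way, at 9.44, 9.46 and 9.37 against 9.54, 9.50 and 9.50, below its controls in every rat but not called (log2 fold change −0.09, limma adjusted p = 0.402), and miR-29a differed by 0.02 (adjusted p = 0.927). MPy, an antihistamine and liver carcinogen, had miR-29b at 9.57, 9.95 and 10.10 against 9.51, 9.75 and 9.43 in the arrays filed as MC1. The first MPy rat lay among the controls, and the log2 fold change of 0.31 was not called (limma adjusted p = 0.0835). Against the arrays that the deposited table gives to MC1 it was 0.45 and called (limma adjusted p = 0.017, 12.3% of miRNAs called, against 18.5% under the filed labels).

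PB, a barbiturate and inducer of liver enzymes, had miR-29a at 10.59, 10.57 and 10.13 against 10.36, 10.19 and 10.29 in MC6. The third PB rat, read on scan day 3 while all other PB and MC6 arrays were read on day 1, fell below the controls. The log2 fold changes of miR-29a, miR-29b and miR-29c in PB were 0.15, 0.17 and 0.15, none called (limma adjusted p 0.429, 0.651 and 0.429), where 3.09% of miRNAs were called. ETH, an analogue of methionine, had miR-29c at 9.23, 9.10 and 9.19 against 9.21, 9.39 and 9.38 in MC5, with a log2 fold change of −0.16 that limma did not call (adjusted p = 0.131, 16% of miRNAs called). Against the arrays filed as MC2 it was −0.23, the 1 fall called under the deposited table's assignment (limma adjusted p = 0.018, 15.4% called).

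In the remaining compounds no member was called under either assignment. Wy, a peroxisome proliferator, had log2 fold changes of 0.20, 0.20 and 0.15 for miR-29a, miR-29b and miR-29c (25.9% of miRNAs called). Its rats had miR-29b at 9.72, 9.56 and 9.99, with the last well above the others. All Wy arrays were read on scan day 1, and those filed as MC1 on days 2 and 3. With scan day as a block the log2 fold changes in Wy were 0.05, 0.13 and 0.08, none called. These were indirect estimates, since Wy shared no scan day with its controls. In Mcarb, without such a block, the values were −0.08, 0.10 and −0.17 (1.85% called). In the non-carcinogens CFX and Nif, where limma called 0% of miRNAs (1 and 20 of 162 at an unadjusted p under 0.05), they were 0.00016, −0.06 and −0.10, and −0.06, −0.02 and −0.10. Under the assignment of the deposited table the values of miR-29a, miR-29b and miR-29c were 0.17, 0.33 and 0.19 in Wy, −0.11, 0.23 and −0.13 in Mcarb, 0.04, −0.15 and −0.07 in CFX, and −0.02, −0.11 and −0.07 in Nif. The widest 95% half-interval, without adjustment, was 0.17 for miR-29a, 0.27 for miR-29b and 0.14 for miR-29c on the log2 scale. Changes below those sizes could not be told from 0 in a single compound. After adjustment some larger ones were not called either, up to 0.22 for miR-29a and 0.31 for miR-29b and down to −0.18 for miR-29c.

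AA and TAA differ by an oxygen in the one and a sulphur in the other, but were given at different doses and for different times, so their values are set side by side without a test. In AA, where 13.6% of miRNAs were called, the log2 fold changes of miR-29a, miR-29b and miR-29c were 0.0076, −0.017 and 0.00022. In TAA, where 21.6% were called, they were −0.14, 0.0047 and −0.18. TAA, a further classic inducer of liver fibrosis, had miR-29c at 9.13, 9.27 and 9.18 against 9.37, 9.25 and 9.50 in the arrays filed as MC1, with 1 of 3 rats above the lowest control. All TAA arrays were read on scan day 1, and those filed as MC1 on days 2 and 3. With scan day as a block the TAA values were −0.29, −0.06 and −0.25, and limma called the first, of miR-29a (adjusted p = 0.0312). Since TAA shared no scan day with its controls, these block estimates were indirect, drawn from groups spread over scan days. Against the controls that the deposited table assigns, without such a block, the values were −0.02, 0.12 and 0.04 in AA. In TAA they were −0.16, 0.14 and −0.14, with none called in either compound.

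That 1 member was called and another was not does not show that they differed, so the difference between their log2 fold changes was fitted itself. It was added as 3 further quantities to the same limma fit (165 in all). The log2 fold change of miR-29b exceeded that of miR-29a in 5 compounds, by 0.75 in DHEA, 0.67 in PBO, 0.63 in CPA, 0.46 in CIDB and 0.29 in DMN (standard error 0.11, limma adjusted p 7.34e-07, 1.27e-05, 6.27e-05, 0.00159 and 0.0497). The number was 4 in several alternatives, among them scan day as a block, slide as a random block, the mean over probes and no detection filter. It also exceeded that of miR-29c in 5 compounds, since miR-29c minus miR-29b was −0.83 in DHEA, −0.57 in CPA, −0.44 in PBO, −0.41 in DMN and −0.39 in MPy (standard error 0.12, limma adjusted p 3.93e-07, 0.000695, 0.00867, 0.00902 and 0.0119). In DMN and MPy the rise of miR-29b itself was not called. The near-identical pair miR-29c and miR-29a differed in 3 compounds, by 0.31 in CIDB and 0.23 in PBO and by −0.28 in ETH (standard error 0.06, limma adjusted p 0.00023, 0.00867 and 0.00146), but with the first probe alone 0 rises and 3 falls of this difference were called. Under the assignment of the deposited table the numbers of compounds called were 6, 5 and 2.

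**Figure D3:**
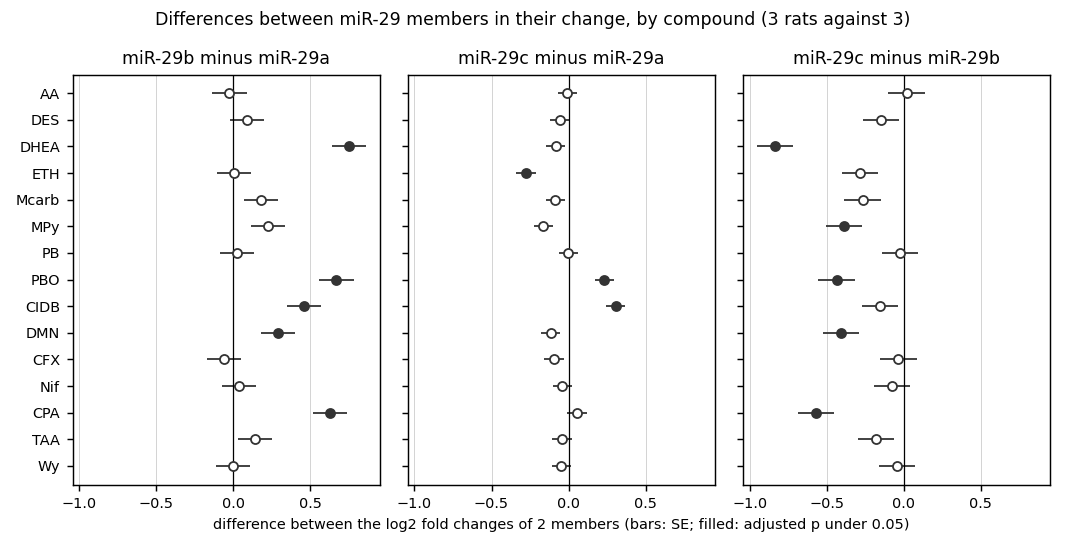
Difference between the log2 fold changes of 2 members (x axis) in each of 15 compounds (rows), with standard errors as bars and filled points for a limma adjusted p under 0.05. The filled points of miR-29b minus miR-29a all lie right of 0, from 0.29 to 0.75, and those of miR-29c minus miR-29b all left of it, from −0.83 to −0.39.

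In DES the 3 members rose by amounts that could not be told apart (miR-29b minus miR-29a 0.09, limma adjusted p = 0.535, miR-29c minus miR-29a −0.06, adjusted p = 0.512, miR-29c minus miR-29b −0.15, adjusted p = 0.342). MiR-29a and miR-29c followed each other most closely over the 21 group means (Pearson r = 0.78), against 0.53 for miR-29b and miR-29c and 0.48 for miR-29a and miR-29b. The points share control sets, slides and scan days, and miR-29a and miR-29c differ by 1 base, so that signal of one on the probes of the other was not tested.

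The 2 probes of each member gave a further view. Over 63 arrays they followed each other with r = 0.95 for miR-29b, 0.84 for miR-29c and 0.77 for miR-29a. Each probe of miR-29b alone gave a called rise in DHEA (0.97 and 0.78), PBO (0.76 and 0.80) and CPA (0.72 and 0.97). In CIDB the first probe gave 0.39 (limma adjusted p = 0.0188) and the second 0.38 (adjusted p = 0.0765), and in DES the first gave 0.28 (adjusted p = 0.0617) and the second 0.50 (adjusted p = 0.0105).

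**Figure D4:**
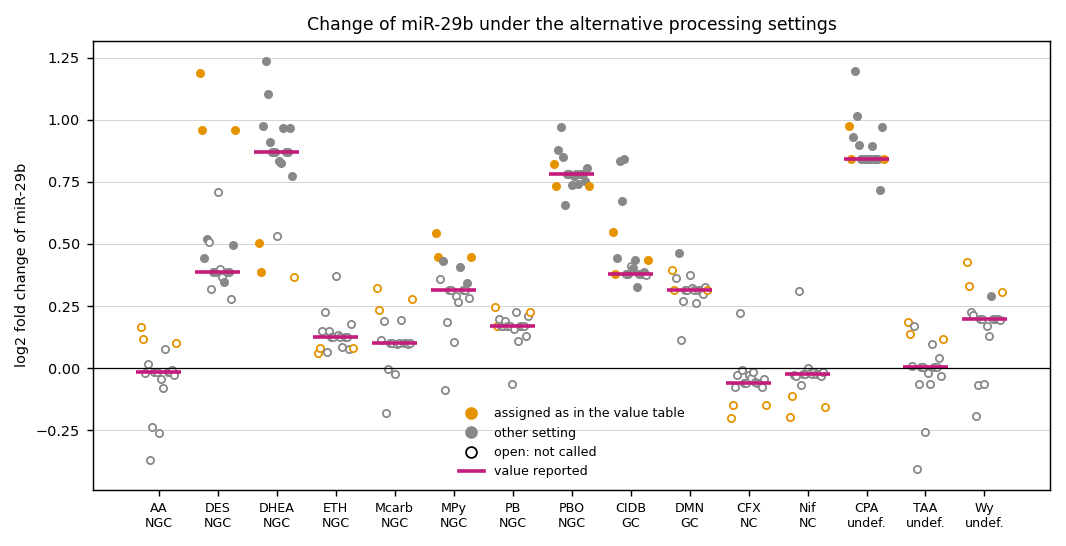
Log2 fold change of miR-29b in 15 compounds under up to 18 alternative settings (points), orange where the arrays were assigned as in the deposited table and grey otherwise, filled for an adjusted p under 0.05, with the reported value as a magenta line. CPA stays between 0.72 and 1.20 and PBO between 0.66 and 0.97 with every point filled, while DES and DHEA exchange their height with the assignment.

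MiR-29b was called in 18 of 18 alternative settings in CPA, spanning 0.72 to 1.20, and in 17 of 17 in PBO, spanning 0.66 to 0.97. In DHEA it was called in 15 of 17 (0.37 to 1.24), in CIDB in 14 of 17 (0.33 to 0.84) and in DES in 11 of 17 (0.28 to 1.19). These counts go by compound name. In the settings that follow the deposited table, DHEA stands for the arrays filed as DES, and DES for those filed as DHEA. The 0.37 in DHEA and the 1.19 in DES came from such settings. For the arrays filed as DHEA the lowest value under their own name was 0.53, with slide as a fixed block. Leaving out each rat in turn kept the call in 6 of 6 cases for CPA (0.80 to 0.93), PBO (0.72 to 0.89) and DHEA (0.81 to 0.97).

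The study's main contrast was between classes of compound, here tested over compounds since rats of 1 compound share their control set. The mean log2 fold change of miR-29b was 0.34 ± 0.29 (SD) over 10 carcinogens and −0.04 over 2 non-carcinogens, a difference of 0.38 (two-sided exact permutation p = 0.0606, smallest possible 0.0152). The difference was 0.11 for miR-29a (exact permutation p = 0.242) and 0.15 for miR-29c (exact permutation p = 0.273). For miR-29b the 8 NGC had a mean of 0.34 and the 2 GC of 0.35 (exact permutation p = 1, smallest possible 0.0222). Between NGC and NC the difference of miR-29b was 0.38 (exact permutation p = 0.111). Of 9 such relations none passed Benjamini-Hochberg adjustment, the smallest adjusted p being 0.41. In limma over compounds 0 of 162 miRNAs were called in each of the 3 class contrasts, with 9, 19 and 11 at an unadjusted p under 0.05. Both NC share MC2 and both GC share CO3. Under the deposited table's assignment the difference of miR-29b between carcinogens and non-carcinogens was 0.51 (exact permutation p = 0.0303, not adjusted).

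Beside the family, other miRNAs linked to fibrosis were followed by lists chosen with earlier results of these data known. The list of pro-fibrotic miRNAs (miR-21, miR-199a-3p, miR-199a-5p, miR-214, miR-221 and miR-222) had 5 of 6 members tested, since miR-222 was detected on no array, and 10 of 75 values (13.3%) were called over 15 compounds, 4 up and 6 down (4 up and 4 down under the assignment of the deposited table). MiR-21, which rises in activated stellate cells and in many tumours, rose in CIDB by 0.70 (limma adjusted p = 1.11e-08) and fell in the arrays filed as DHEA by 0.27 (adjusted p = 0.019) and in those filed as DES by 0.22 (adjusted p = 0.0359). In DMN, where no miR-29 member was called, miR-21 rose by 0.30 (limma adjusted p = 0.00697). There 1 pro-fibrotic member rose and 2 fell, with 23.5% of all miRNAs called. MiR-221 fell in the arrays filed as DHEA by 0.08 (adjusted p = 0.00203) and rose in those filed as DES by 0.07 (adjusted p = 0.00689). It also rose in Wy by 0.11 (limma adjusted p = 6.76e-05). In TAA it fell by 0.06 (limma adjusted p = 0.0319, and 0.105 with the controls of the deposited table). It was detected on 42 of 63 arrays and well above background on 16, so these small shifts lie near the detection limit. With the assignment of the deposited table the arrays filed as DES keep their values under the name DHEA, while the arrays filed as DHEA, there DES, had miR-21 at −0.21 and not called (adjusted p = 0.0847) and miR-221 lower by 0.08 (adjusted p = 0.00202). In CPA and PBO, where miR-29b had the highest log2 fold change, 0 of 5 pro-fibrotic members were called, and their median log2 fold changes were −0.01 and 0.0094 beside 0.0034 and −0.0085 over all 162.

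The list of other anti-fibrotic miRNAs (the miR-30 family, miR-133a and miR-133b, miR-150, miR-335, miR-19b, miR-101a and miR-101b) had 10 of 12 members tested, and 22 of 150 values (14.7%) were called, 3 up and 19 down. Over all miRNAs 14.3% of values were called, so neither this list nor the pro-fibrotic one stood out by its share. In the 5 compounds in which miR-29b rose, 2 of their values rose and 7 fell (2 and 9 in the same compounds under the assignment of the deposited table). The share called over all miRNAs was 5.56% in CPA, 8.64% in PBO and 20.4% in CIDB. It was 18.5% in the arrays filed as DHEA and 37% in those filed as DES. In CPA, miR-19b fell by 0.28 (limma adjusted p = 0.0324) and miR-335 by 0.11 (adjusted p = 0.0478). In PBO miR-19b fell by 0.36 (adjusted p = 0.0022), and by 0.42 against the controls the deposited table assigns (adjusted p = 0.000351). In the arrays filed as DHEA miR-335 rose by 0.18 (adjusted p = 0.000141), and in those filed as DES 1 member rose and 4 fell, miR-30c among them by 0.17 (adjusted p = 0.00278). In CIDB 0 of 10 were called. Seeds were looked up for 44 miRNAs outside the family. These were the listed ones and those that followed a member most closely over groups, of which only the nearest are named below. Of the 44, 35 had a RefSeq entry, and 0 of these held the miR-29 seed.

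Markers of the cell types in liver moved in some of the compounds in which a member rose, and their part in the result was not tested. In CIDB 2 of 3 hepatocyte miRNAs fell, miR-122 by 0.33 (limma adjusted p = 3.04e-11) and miR-192 by 0.50 (adjusted p = 2.28e-07), and the summed normalised intensity of the 3 was 20607 to 24903 in the CIDB rats against 26889 to 28756 in CO3. In the arrays filed as DHEA 1 of 3 fell (miR-192 by 0.36, adjusted p = 0.000105), with a sum of 27856 to 28126 against 28316 to 28696, and in PBO 1 of 3 (miR-192 by 0.24, adjusted p = 0.0172), with 28035 to 28255 against 28183 to 28752. In the arrays filed as DES 1 of 3 rose (miR-192 by 0.26, adjusted p = 0.00357). There miR-122 was lower by 0.05 and miR-194 by 0.14, neither called (limma adjusted p 0.197 and 0.0782). The sum was 27334 to 28472 against 28183 to 28752 in MC5. In CPA 0 of 3 were called, with a sum of 27754 to 28706 against 28192 to 28476 in CO4. Quantile normalisation gives all arrays the same distribution of spot values, which limits how far a sum of bright miRNAs can move. A steady sum is therefore not read as a steady share of hepatocytes, which was not tested. Against the arrays filed as MC2, the controls of the deposited table, miR-192 fell by 0.47 in the arrays filed as DHEA (adjusted p = 7.55e-07) and by 0.31 in PBO (adjusted p = 0.00149), and miR-194 fell by 0.19 and 0.22 (adjusted p 0.0409 and 0.0195).

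Of 5 leukocyte miRNAs, 0 were called in CPA, PBO and the arrays filed as DHEA, 1 fell in CIDB (miR-223 by 0.15, limma adjusted p = 0.0259) and 2 fell in the arrays filed as DES (miR-142-3p by 0.52, adjusted p = 0.000696, and miR-142-5p by 0.08, adjusted p = 0.0227). Their summed intensity was 1141 to 1174 in CIDB against 1193 to 1286 in CO3, and 1119 to 1205 in the arrays filed as DES against 1291 to 1316 in MC5. In CPA it was 1131 to 1152 against 1224 to 1255 in CO4, with no member called. In DMN, where miR-29b minus miR-29a was called, 4 of 5 rose, with a sum of 1494 to 1899. Of 4 tested stellate and smooth muscle miRNAs, miR-145 being detected on no array, 0 were called in CPA, PBO, CIDB and the arrays filed as DHEA or DES, and 3 fell in DMN. Of 2 endothelial miRNAs 1 was called among these 5 compounds (miR-126* down by 0.09 in the arrays filed as DES, adjusted p = 0.00335), and of 2 erythroid miRNAs 0 were called in any compound. MiR-126* was well above background on 34 arrays and miR-142-5p on 36, so their small changes lie near the detection limit. MiR-155 is not on the array.

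The tested miRNAs outside the family whose 21 group means followed each member most closely were listed by Pearson r as a description, since groups share controls, slides and scan days. For miR-29a these were miR-30b-3p (r = 0.77, detected on 10 arrays), let-7i (0.74, 63 arrays) and miR-212 (0.72, 60 arrays). For miR-29b they were miR-499 (0.64, detected on 1 array), let-7d (0.63, 63 arrays) and miR-365 (0.59, 63 arrays). For miR-29c they were miR-30b-3p (0.70), miR-212 (0.66) and miR-361 (0.66, 63 arrays). MiR-29a and miR-29c thus had miR-30b-3p and miR-212 in common among their 3 closest, and miR-29b had none in common with either.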

How the data were processed

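RNA from the livers of 63 rats was hybridised by the authors to 1-colour Agilent rat miRNA arrays and read with Feature Extraction. The scanner files hold the deposited spot intensities on a linear scale, of which the mean signal was used. The authors also deposited 1 table of log2 values per miRNA, which per the labels and methods come from a variant of the RMA algorithm without background correction, and it was used as an alternative and to check labels. No column was left unmapped.

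From the mean signals, spots with an outlier flag (2.87%) were set missing, spots were quantile normalised without background correction, averaged per probe, turned to log2 and summarised by median polish in R 4.3.3. The 162 miRNAs detected on at least 1 array were fitted with limma 3.58.1 over 63 arrays in 21 groups, each compound minus the control set of its label, with Benjamini-Hochberg adjustment within a compound and a threshold of 0.05. Differences between members were fitted as 3 added quantities. Classes were compared over compounds by exact permutation tests, two-sided, and by limma. The code was tested on simulated data. Detected miRNAs per array numbered 81 to 151, with a median of 107.

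Array labels and table columns were compared by correlation of centred values over 71 miRNAs detected on all arrays. The 15 columns that followed another array had a correlation with it of at least 0.84. The classes of compounds are those of the study. Same-numbered rats of PB and MC6 and of CPA and CO4 had correlations of −0.26 to 0.05, so the numbers did not pair rats.

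The members and lists were chosen with earlier results of these data known. Named were the 3 members, the opposite strands of their hairpins, the 3 miRNAs most like each member, and listed miRNAs called in a compound in which a member was called, up to 4 per list, along with miR-122 as a marker of liver. An array name without a star was taken as the arm given in the sequences, and probe sequences were not used here.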

Additional observations from a re-analysis of the deposited data

How the results depend on the processing

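The scalings tried moved the median of all miRNAs by −0.25 to 0.25 (75th percentile over all probes), −0.18 to 0.38 (75th percentile over detected probes), −0.42 to 0.31 (median centring) and −0.12 to 0.05 (deposited table) on the log2 scale. MiR-29b was called in CPA and PBO under every alternative run. By compound name, the rise of miR-29b in DHEA was called in 15 of 17 alternatives, with 0.37 as the lowest value. That value came from the arrays filed as DES, which the deposited table gives to DHEA. Slide as a fixed block was among those that lost the call, and there DHEA and MC1 shared no slide, so the estimate was indirect. Causes of changes were not tested.

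With slide as a fixed block the number of compounds called was 0 for miR-29a, 2 for miR-29b and 2 for miR-29c, and 2, 1 and 2 for the differences miR-29b minus miR-29a, miR-29c minus miR-29a and miR-29c minus miR-29b. With all control rats of the vehicle pooled, 3 compounds were called for miR-29a, 8 for miR-29c (5 rises, and falls in ETH of 0.22, Mcarb of 0.19 and TAA of 0.20), and 8 each for miR-29b minus miR-29a and miR-29c minus miR-29b. Median centring without quantile normalisation gave 2 for miR-29c, 3 for miR-29b minus miR-29a and 0 for miR-29c minus miR-29a. The 75th percentile over all probes gave 2 for miR-29c, both falls (MPy and TAA), and 1, below 0, for miR-29c minus miR-29a, and that over detected probes 3 for miR-29a. An equal count could hide another compound: the 1 call of miR-29a was a fall in TAA with the 75th percentile over all probes (−0.66) and with scan day as a block (−0.29), and a rise in CIDB with median centring. With only the groups compared in the fit there were 2 for miR-29a and 2 for miR-29c minus miR-29b. The first probe alone gave 2 for miR-29a and 3 for miR-29b minus miR-29a. With the deposited table's assignment and scan day as a block, an alternative chosen after seeing the data, 0 were called for miR-29a. Leaving out 1 rat gave 1 to 3 for miR-29a, with more than the reported 1 without MC1 replicate 6, PB replicate 3 or Wy replicate 2.

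Of the 45 member values, 25 were called in some setting, and 16 of the other 20 changed sign in some setting. MiR-29a in CIDB, −0.08 as reported, became 0.43 with the 75th percentile over detected probes and 0.61 with median centring, both called, and 0.27 with the 75th percentile over all probes, 0.0037 with slide as a fixed block, 0.0084 with scan day as a block under both assignments and 0.061 with the first probe alone. In Wy, the 75th percentile over all probes gave −0.19 for miR-29a and −0.19 for miR-29b, median centring −0.090 and −0.068, and slide as a fixed block −0.064 for miR-29b. None of the following was called with its new sign. Slide as a fixed block turned miR-29a in DHEA to −0.14, miR-29c in DHEA to −0.33 and miR-29c in ETH to 0.050, and slide as a random block turned miR-29c in DHEA to −0.0027. The 75th percentile over all probes turned miR-29b in MPy to −0.088 and miR-29c in DHEA to −0.094, and median centring turned miR-29c in DHEA to −0.086. In the deposited table miR-29c in DES, a called rise as reported, was −0.024, there from the arrays filed as DHEA. Without 1 rat, miR-29c in DHEA ran from −0.023 to 0.10, below 0 without DHEA replicate 2 or MC1 replicate 5. For the uncalled miR-29b in MPy the range was 0.20 to 0.46, called without MC1 replicate 5 or MPy replicate 1. Calls were likewise gained by miR-29b in DMN without CO3 replicate 6 or DMN replicate 1 (0.16 to 0.45), miR-29a in PB without PB replicate 3 (0.07 to 0.30) and in Wy without MC1 replicate 6 or Wy replicate 2 (0.14 to 0.28), and miR-29c in TAA without MC1 replicate 5 (−0.24 to −0.11).

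Between carcinogens and non-carcinogens the difference became −0.34 for miR-29a and −0.29 for miR-29c with the 75th percentile over all probes, and −0.083 for miR-29a with slide as a fixed block. For miR-29b it was 0.68 in the deposited values and 0.51 with its assignment (exact permutation p = 0.0303 in both), and 0.33 to 0.42 leaving out 1 compound, with the lowest exact permutation p = 0.0364 and p under 0.05 without AA or without Mcarb. Between NGC and GC miR-29a became −0.10 with the 75th percentile over detected probes, −0.053 with that over all probes, −0.29 with median centring and −0.032 with slide as a fixed block. MiR-29b became 0.0097 in the deposited table, 0.044 with its assignment and 0.071 with pooled controls, and ran from −0.081 to 0.046 leaving out 1 compound, as miR-29c did from −0.18 to 0.14. Between NGC and NC the 75th percentile over all probes gave −0.35 for miR-29a, −0.0085 for miR-29b and −0.33 for miR-29c, slide as a fixed block gave −0.089 for miR-29a, and miR-29b was 0.68 in the deposited values (exact permutation p = 0.0444).

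Calls of the other lists over 15 compounds moved as follows. For the 10 pro-fibrotic calls there were 6 with median centring, 2 with slide fixed, 6 with slide random, 5 with only the groups compared and 6 with the table's assignment and scan day. The range over settings was 2 to 13. For the 22 other anti-fibrotic calls there were 11, 9 and 12 with median centring, slide fixed and slide random, 13 with scan day and 14 with only the groups compared. Over all 15 settings counted their number ran from 9 to 33, so it also rose. For the 9 hepatocyte calls there were 14 with the 75th percentile over all probes and 15 with pooled controls, with a range of 6 to 15 over settings. For the 7 stellate and smooth muscle calls there were 11 with the 75th percentile over detected probes, 0 with slide fixed, 3 with slide random, 4 with scan day and 2 with only the groups compared. For the 2 endothelial calls these were 7, 0, 1 and 1 in the first 4 of these settings, 6 with pooled controls, 1 with the table's assignment and scan day, and 1 to 3 without 1 rat. For the 10 leukocyte calls there were 20 with the 75th percentile over detected probes, 4 with slide fixed and 6 with slide random. For the 0 erythroid calls there were 2 in the deposited table, 1 with each of both 75th percentile scalings, 1 with median centring, 2 with pooled controls, 1 with only the groups compared, and 0 to 1 without 1 rat.

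With the replicate number as a block (replicate block) miR-29b in CPA was 0.84 (limma adjusted p = 2.23e-05) and miR-29c 0.27 (limma adjusted p = 0.0111), and this block changed no call of a member in CPA or PB. The numbers did not pair the rats.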
